A study of Homo sapiens with 9 samples.

Results

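Gene expression in PC3 cells was compared with that in vehicle-treated LNCaP cells across every gene that exceeded 3 CPM (read counts scaled to a common library size) in at least 3 of the 6 libraries of these 2 groups. This rule kept 12686 of the 28216 genes in the count table, and it used only the level and not the difference between the lines. PC3 was grown untreated in F12K medium with fetal bovine serum, whereas LNCaP was kept in RPMI without phenol red and with charcoal-stripped serum for 24 h before it received vehicle (0.01% ethanol) for 48 h. A further group of 3 LNCaP libraries received 10 nM androgen in place of the vehicle, named DHT in the sample labels, and its levels are given beside some of the results. All samples were labelled as wild-type epithelial cells. Medium, serum and cell line differ together here and cannot be told apart.

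PC3 is a human prostate cancer line from a bone metastasis that grows without androgen, and LNCaP is a line from a lymph node metastasis that keeps the hormone response of prostate luminal cells. Luminal cells line the lumen of the prostate gland, secrete kallikrein proteases such as prostate-specific antigen, and need androgen for much of this output. Basal cells lie beneath them on the basement membrane, to which they are held by integrins and laminin. Carcinoma cells can lose the junctions of epithelium and take up genes of mesenchymal cells, a state in which cadherin type, cytoskeleton and matrix proteins differ.

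Each line was represented by 3 libraries of poly(A) RNA, sequenced as single-end reads of 74 nt. The PC3 libraries held 22444083 to 25640325 reads on genes and the vehicle libraries 17397706 to 18674795, as summed from the count table. Of the 12686 genes, 10243 exceeded 3 CPM in all 6 libraries, 1093 did so only in the 3 PC3 libraries and 953 only in the 3 vehicle libraries. A gene was called when its edgeR quasi-likelihood test gave a Benjamini-Hochberg adjusted p under 0.05 over all 12686 genes and its level differed by at least 2-fold. By this rule 5485 genes (43.2%) were called, 2822 (22.2%) higher and 2663 (21.0%) lower in PC3. A further 5092 genes had an adjusted p under 0.05 with a difference under 2-fold. Genes that passed the filter through 1 line alone had to differ, and among the 10243 genes above 3 CPM in all 6 libraries 3243 (31.7%) were called. Counts and medians of the gene lists below are descriptions. Where a list has members that passed through 1 line, the count among genes above 3 CPM in all 6 libraries is given beside them. This was not done for the markers of other cell types. The median standard error of a log2 fold change was 0.10. Because the labels do not say whether replicates were separate cultures, p-values measure the spread between these samples only.

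**Figure D1:**
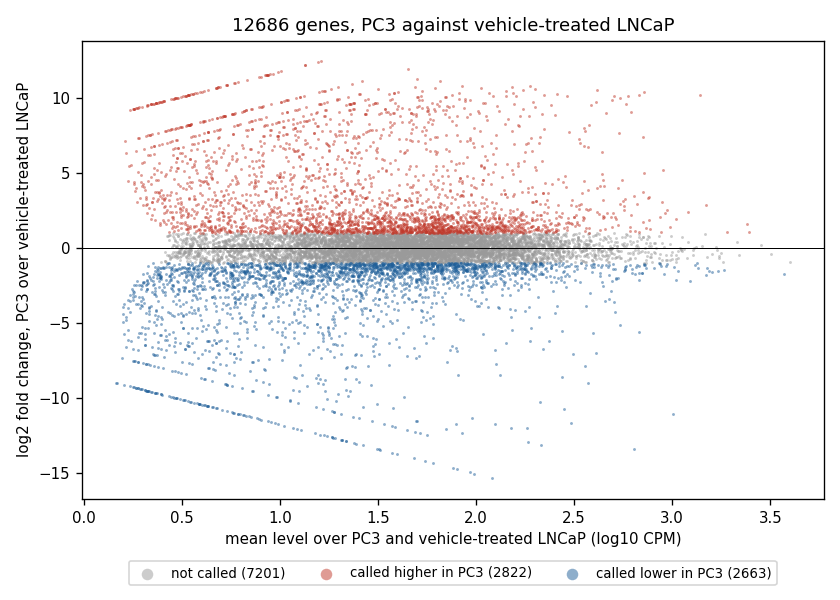
Each point is 1 of the 12686 genes, with the mean level of both lines on the x axis (log10 CPM) and the log2 fold change of PC3 over vehicle-treated LNCaP on the y axis. The 2822 genes called higher and the 2663 called lower spread to beyond 10 on the log2 scale in both directions, and the diagonal lines of points at the left are genes with 0 or 1 count in the libraries of one line.

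Vehicle replicate 1 held more of the transcripts abundant in PC3 than the other vehicle libraries. Over 96 genes above 100 CPM in PC3 and under 1% of that level in every LNCaP library, the summed level was 0.335% of that in PC3 in vehicle replicate 1, against 0.133% in replicate 2 and 0.168% in replicate 3. The same genes reached 0.547% in androgen replicate 1 and at most 0.143% in the other androgen libraries. For genes nearly absent from LNCaP the size of a fold therefore rests on a few reads. For some genes nearly absent from one line it is given below as a ratio of mean levels with its exact 95% interval. The ratio is given again without a library, in PC3 or LNCaP, where its absence moved the ratio by over 1.5 times. These intervals cover counting error only. Other such genes are given by reads or levels alone, and their ratios were not all stable. Without vehicle replicate 1 the ratio of TIMP1 went from 1172 to 5501 and that of SPRY4 from 1232 to 2478. The part of this library in each result was not tested beyond these values.

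The labelled epithelial origin was checked against keratins and against genes of other cell types. KRT18, a keratin of simple epithelium, was at 289, 290.1 and 281 CPM in the 3 PC3 libraries and at 328, 329 and 326 CPM in the 3 vehicle libraries, and it was not called. Its partner KRT8 was at 132, 133 and 126 CPM in PC3 and at 277, 255 and 260.1 CPM in LNCaP. EPCAM, an epithelial adhesion molecule, was at 30.4 to 34.4 CPM in PC3 and 119.6 to 126 CPM in LNCaP. KRT8 and EPCAM were called lower in PC3, at -1.04 and -1.94 on the log2 scale. CDH1, a further epithelial marker described below, was called lower at -5.58. PC3 thus held KRT18, and KRT8 and EPCAM at lower levels than LNCaP, together with the mesenchymal genes described below. None of 7 blood cell markers passed the filter, and their summed level was 0.4 to 0.8 CPM in PC3 and 0.1 to 0.3 CPM in the vehicle libraries. Of 7 fibroblast markers only COL3A1 and COL1A1 passed, and 1 of these was called higher in PC3 and the other was not called. The summed level over the list was 37.4 to 50 CPM in PC3 and 22.9 to 25.9 CPM in LNCaP. COL1A2, DCN, LUM, PDGFRB and POSTN did not pass. Of 7 endothelial markers KDR was higher in PC3 and VWF in LNCaP, at summed levels of 6.3 to 8.7 CPM and 16.3 to 18.2 CPM.

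Luminal prostate genes were lower in PC3. Of 22 members of the luminal list, 17 were called lower, none higher, and 5 were not called. The list had a median log2 fold change of -3.83 against 0.03 over all 12686 genes. Of the 14 above 3 CPM in all 6 libraries 9 were called lower, with a median of -1.74. FOLH1, which encodes prostate-specific membrane antigen, was at 0, 0.045 and 0.276 CPM in PC3 and at 1262, 1344 and 1225 CPM in LNCaP. Its 8 reads in PC3, 7 of them in replicate 3, put the ratio at 11598 (5886 to 26864), and it was 60367 without PC3 replicate 3 and 7598 without PC3 replicate 1. For FOLH1 26.4% of the 74-base windows of its transcript have a further match outside the gene, so that reads from there are not counted as unique. HPN, which encodes the membrane protease hepsin, had a single read in PC3 and lay at 99.2, 105 and 106 CPM in LNCaP.

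KLK3, the gene of prostate-specific antigen, was at 0.0798, 0.0899 and 0.787 CPM in PC3 and at 514, 682 and 492 CPM in LNCaP. The 3 PC3 libraries held 2, 2 and 20 reads, and the ratio of 1700.0 (1142 to 2654) was 6637 without PC3 replicate 3. KLK2, a related kallikrein, had no read in any PC3 library and 32.5, 48.8 and 33.1 CPM in LNCaP, at least 307-fold higher against a floor of 3 reads per library. These vehicle levels are those of cells deprived of androgen, and both genes were higher still in the androgen-treated libraries, at 4261 ± 161 CPM for KLK3 and 699 ± 50.2 CPM for KLK2 (SD, n = 3). In that comparison, which shares the 3 vehicle libraries, 1641 of 11697 genes tested (14.0%) were called. The promoter of KLK3 is shown as an example of a luminal gene whose start carries the letters AGAACA, the half-site of the androgen response element, in capitals. The window runs from 250 bases before to 50 after the start site and is from RefSeq on GRCh38.p14, at chr19:50854665-50854964 on the plus strand.
KLK3: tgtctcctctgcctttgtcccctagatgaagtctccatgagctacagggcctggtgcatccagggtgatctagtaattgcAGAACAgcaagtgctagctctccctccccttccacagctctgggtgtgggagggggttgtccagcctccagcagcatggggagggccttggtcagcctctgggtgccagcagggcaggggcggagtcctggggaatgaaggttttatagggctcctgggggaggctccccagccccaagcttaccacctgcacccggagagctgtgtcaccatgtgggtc
AGAACA or its reverse complement TGTTCT occurred once in it, starting at position -170, and 14.8% of 35114 RefSeq promoter windows of this length hold either form.

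The transcription factors of luminal cells differed unequally. GATA2 was at 10.5 to 14.4 CPM in PC3 and 281 to 293 CPM in LNCaP. FOXA1, which opens chromatin at hormone-responsive enhancers, was at 116, 119 and 120.2 CPM in PC3 and 528, 549.9 and 489.8 CPM in LNCaP. HOXB13, a posterior homeobox factor of the prostate, was at 471, 523 and 805 CPM in PC3 and at 545, 539 and 524 CPM in LNCaP, so that the groups overlapped and it was not called. SPDEF, an ETS factor of luminal cells, was at 86.3 to 113 CPM in PC3 and 68.5 to 74.5 CPM in LNCaP, with a difference under 2-fold. PMEPA1 and NCAPD3 were not called either, at -0.56 and -0.12 on the log2 scale, while both were called higher in androgen-treated than in vehicle-treated LNCaP.

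Genes of epithelial junctions were lower in PC3, with 21 of 25 called lower, none higher, and a median log2 fold change of -2.84. Of the 19 above 3 CPM in all 6 libraries 15 were called lower. CDH1, which encodes the adherens junction protein E-cadherin, was at 10.4, 10.3 and 13.6 CPM in PC3 and 564, 528 and 528 CPM in LNCaP (log2 fold change -5.58 ± 0.13, SE, edgeR adjusted p = 2.2e-08). CTNNA1, which encodes the α-catenin that links cadherins to actin, was at 3.91, 3.15 and 5.12 CPM in PC3 and 441, 422 and 442 CPM in LNCaP. Their partners CTNNB1 and CTNND1, which encode β-catenin and p120-catenin, were not called, at -0.17 and -0.18 on the log2 scale, although 76.2% of the windows of the CTNND1 transcript also occur in other transcripts or elsewhere. RAB25, an epithelial GTPase of recycling endosomes, was at 0.236 to 0.405 CPM in PC3 and 69.0 to 72.8 CPM in LNCaP. GRHL2, a factor that maintains epithelial junction genes, was at 3.03 to 4.05 CPM in PC3 and 112 to 126 CPM in LNCaP. The tight junction gene CLDN7 had a log2 fold change of -5.74 ± 0.14 (edgeR adjusted p = 2.8e-08), whereas CLDN3 and CLDN4 lay on the other side at 0.59 each and were not called. EHF, an epithelial ETS factor, was at 5.30, 5.62 and 7.99 CPM in PC3 and 786, 848 and 790.3 CPM in LNCaP.

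Of 21 mesenchymal genes 16 passed the filter, with 15 called higher in PC3 and CALD1 called lower. Only 4 of them exceeded 3 CPM in all 6 libraries, with 3 called higher and CALD1 lower, and the others passed through their level in PC3, so that their direction was set by the filter. Among the 5 that did not pass, SNAI1 was at 0.523 CPM on average in PC3 and 2.26 CPM in LNCaP, and TAGLN at 1.52 and 2.94 CPM. The median log2 fold change was 8.56, or 8.17 with TWIST2, which had no read in the vehicle libraries, set to its lower bound. Among the 4 above 3 CPM in all 6 libraries the median was 1.99. VIM, the intermediate filament of mesenchymal cells, was at 1199, 1183 and 1293 CPM in PC3 and at 3.92, 1.23 and 1.59 CPM in LNCaP. CDH11, a cadherin of osteoblasts and other mesenchymal cells, was at 798, 776 and 918 CPM in PC3 and at 1.41, 0 and 0.248 CPM in LNCaP, a ratio of 1510.4 (1069.8 to 2208), or 6482 without vehicle replicate 1. CDH2, which encodes N-cadherin, was at 183, 171 and 169 CPM in PC3 and at 0.576, 0 and 0 CPM in LNCaP, so that its 11 LNCaP reads all came from replicate 1. The ratio was 921 (515 to 1846), or 601 without vehicle replicate 3, and without replicate 1 PC3 was at least 1130.4-fold higher. AXL, a receptor tyrosine kinase of motile cells, was at 337 to 359.7 CPM in PC3 and 0.0533 to 0.523 CPM in LNCaP, a ratio of 1553 (908 to 2918), or 4514 without vehicle replicate 1. ZEB1, a repressor of CDH1, was at 58.0 to 68.8 CPM in PC3 and had 7 reads in the vehicle libraries, a ratio of 531 (258 to 1322), or 1213 without vehicle replicate 3. FN1, which encodes the matrix protein fibronectin, was the mesenchymal gene with the smallest difference called higher, at 1489, 1383 and 2111 CPM in PC3 and 420.0, 404 and 447 CPM in LNCaP. CALD1, which encodes the actin-binding protein caldesmon, was at 125 to 134 CPM in PC3 and 681 to 871 CPM in LNCaP.

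**Figure D2:**
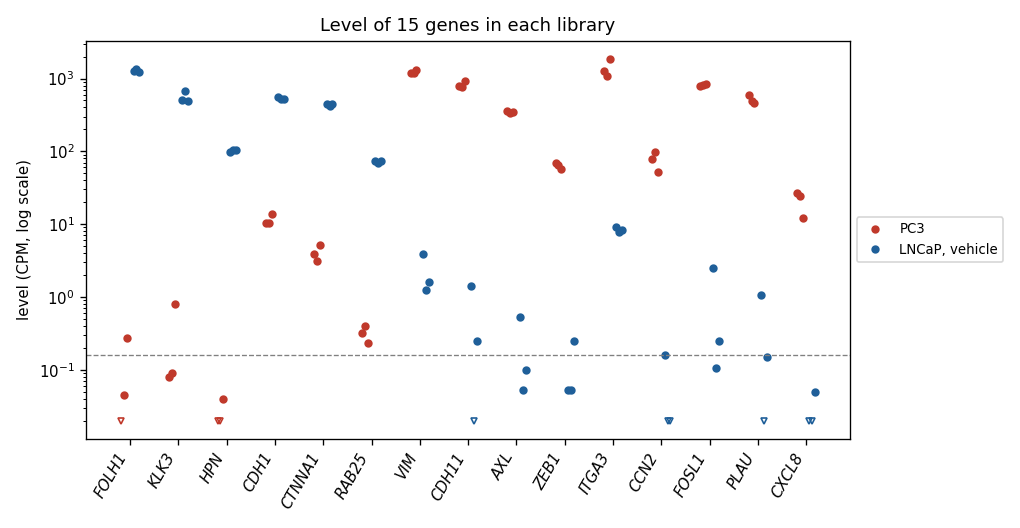
The level of 15 genes is plotted in each of the 3 PC3 and 3 vehicle-treated LNCaP libraries (CPM, log axis), with open triangles at the bottom for libraries without a read and a dashed line at the level of 3 reads. The 6 genes at the left are at 1225 CPM or more for FOLH1 and at least 69.0 CPM for the others in LNCaP. In PC3 these 6 genes are at most at 13.6 CPM. The 9 at the right show the reverse, and the libraries of the lines do not overlap in any gene. Such a lack of overlap was seen in 10842 (85.46%) of all genes tested, so it does not set these genes apart.

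Adhesion to the matrix also differed. Of 20 focal adhesion members 16 were called higher in PC3, 1 lower and 3 were not called, with a median log2 fold change of 2.34. Of the 17 above 3 CPM in all 6 libraries 13 were called higher. ITGA3, the integrin α3 chain that binds laminin, was at 1286, 1085 and 1872 CPM in PC3 and 9.16, 7.68 and 8.34 CPM in LNCaP (log2 fold change 7.38 ± 0.26, edgeR adjusted p = 1.1e-07). ITGA1, a collagen receptor chain, was at 209 to 221 CPM in PC3 and 1.41 to 2.28 CPM in LNCaP. The LIM protein ZYX, found in mature adhesions, was at 1029, 963 and 1198 CPM in PC3 and 46.4, 43.2 and 44.8 CPM in LNCaP. The shared chain ITGB1 was higher by less, at 1084, 1066 and 1137 CPM against 444, 450.3 and 433 CPM. ITGAV was the member called lower, at 53.2 to 57.8 CPM in PC3 and 106 to 114 CPM in LNCaP, a difference close to the threshold of 2-fold that was no longer called under a filter of at least 10 counts in every library or when tested against 2-fold. ITGA5, the fibronectin receptor chain, was not called.

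Genes of basal prostate cells were higher in PC3 among those that could be tested, with 12 of 13 called higher, none lower, and LAMA3 not called. Of the 5 above 3 CPM in all 6 libraries 4 were called higher, with a median log2 fold change of 3.38. The 7 list genes that did not pass the filter include KRT5, KRT14 and TP63, the genes that define basal cells. LAMB3, which encodes a laminin chain of the basement membrane, was at 93.2 to 93.9 CPM in PC3, with 10 reads in the vehicle libraries. The hyaluronan receptor CD44 was at 346, 399 and 294 CPM in PC3 and 0.994, 0.373 and 0.298 CPM in LNCaP, a ratio of 624 (442 to 912), or 1029 without vehicle replicate 1. CAV1, the coat protein of caveolae, was at 494, 597 and 352 CPM in PC3 and 1.52, 0 and 0.347 CPM in LNCaP, a ratio of 767 (554 to 1096), or 2646 without that library. KRT15, a keratin of basal layers, was at 24.7 to 32 CPM in PC3 and had 2 reads in LNCaP.

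Annexins and S100 proteins bind calcium and membranes or cytoskeleton, and 15 of their 18 members were called higher in PC3, none lower, and 3 were not called. The median log2 fold change was 4.67, or 4.36 with S100A3 at its lower bound, and of the 8 above 3 CPM in all 6 libraries 5 were called higher. S100A6 was at 1361, 1288 and 1633 CPM in PC3 and at 2.56, 0.0533 and 0.496 CPM in LNCaP, a ratio of 1386 (1077 to 1817), or 5071 without vehicle replicate 1. ANXA2, which binds plasminogen activators at the cell surface, was at 1139.8, 1167 and 927 CPM in PC3 and 2.41, 0.213 and 0.447 CPM in LNCaP, a ratio of 1056 (819 to 1387), or 3214 without that library. ANXA3 had 4 reads in the vehicle libraries and 113 to 129.8 CPM in PC3, and its ratio of 1788 (698 to 6562) was 4795 without vehicle replicate 1. ANXA6, the member with the smallest difference, was at 124, 168 and 88.3 CPM in PC3 and at 129.7, 136 and 132 CPM in LNCaP, so that the groups overlapped.

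Genes induced by the MAPK pathway, through which receptor tyrosine kinases signal by RAS and ERK, were higher in PC3. Of 21 members 20 were called higher and ETV1 was called lower, with a median log2 fold change of 6.70. Of the 11 above 3 CPM in all 6 libraries 10 were called higher, with a median of 2.45. Among receptors and ligands, MET, the receptor of hepatocyte growth factor, was at 1174, 1133 and 909 CPM in PC3 and 6.75, 3.52 and 5.21 CPM in LNCaP (log2 fold change 7.67 ± 0.24, edgeR adjusted p = 6.3e-08). EPHA2, an ephrin receptor, was at 724 to 774 CPM in PC3 and 6.40 to 7.85 CPM in LNCaP. AREG, which encodes the growth factor amphiregulin, was at 234, 209.5 and 113 CPM in PC3 and had 21 reads in LNCaP. Among transcription factors, FOSL1, a FOS-type partner in AP-1, was at 796, 806 and 833 CPM in PC3 and 2.46, 0.107 and 0.248 CPM in LNCaP, a ratio of 873 (669 to 1162), or 4514 without vehicle replicate 1. ETV4 and ETV5, ETS factors, were at 193 to 215 CPM and at 186 to 220.1 CPM in PC3 and at or below 1.41 CPM in every vehicle library. The related ETV1 was at 64.2 to 80.6 CPM in PC3 and 239.6 to 244 CPM in LNCaP. Among the feedback inhibitors, the ERK phosphatase DUSP6 was at 151 to 164 CPM in PC3 and 0.320 to 1.52 CPM in LNCaP, and SPRY4 at 395 to 504 CPM and 0.107 to 0.733 CPM.

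YAP1 and its relative TAZ, encoded by WWTR1, are coactivators that bind TEAD factors and raise genes such as CCN2 in spread cells. Of 19 members of this list 16 were called higher in PC3, NUAK2 was called lower and 2 were not called, with a median log2 fold change of 3.27. Of the 11 above 3 CPM in all 6 libraries 9 were called higher. WWTR1 was at 368, 413 and 335 CPM in PC3 and 1.73, 0.373 and 0.347 CPM in LNCaP, a ratio of 457 (344 to 622), or 1029 without vehicle replicate 1. YAP1 was higher by less, at 303, 271 and 286 CPM against 130.2, 121 and 118 CPM (log2 fold change 1.20 ± 0.07, edgeR adjusted p = 1.4e-06). TEAD4 was not called, at 0.63 ± 0.12. NUAK2, a kinase gene, was at 1.30 to 2.11 CPM in PC3 and 7.49 to 10.2 CPM in LNCaP. CCN2, which encodes a secreted matricellular protein, was at 79.5, 98.8 and 51.4 CPM in PC3 and had 3 reads in vehicle replicate 1 and none in the other vehicle libraries. The ratio was 1462 (499.9 to 7089.7), or 954 without vehicle replicate 3, and without replicate 1 PC3 was at least 496-fold higher. Its promoter window is shown because it carries the letters GGAATG, the core bound by TEAD factors, more than once, here in capitals. It lies at chr6:131951323-131951622 on the minus strand (RefSeq, GRCh38.p14) and is written along that strand.
CCN2: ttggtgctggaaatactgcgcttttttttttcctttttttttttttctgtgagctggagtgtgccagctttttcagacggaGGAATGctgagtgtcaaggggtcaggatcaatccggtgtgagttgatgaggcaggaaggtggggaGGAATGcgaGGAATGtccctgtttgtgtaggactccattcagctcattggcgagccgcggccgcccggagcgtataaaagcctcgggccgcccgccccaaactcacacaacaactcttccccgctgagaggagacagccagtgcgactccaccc
The letters GGAATG or CATTCC occurred 3 times, starting at -169, -104 and -95 and without overlap, and 14.0% of the 35114 promoter windows hold either form at least once.

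Secreted proteases and their inhibitors differed mainly through genes near 0 in LNCaP. Of 14 members of the urokinase and protease list 10 were called higher, TFPI was called lower and 3 were not called, with a median log2 fold change of 6.79. Only 5 of them exceeded 3 CPM in all 6 libraries, with 1 called higher, 1 lower and a median of -0.28. PLAU, which encodes the urokinase that activates plasminogen, was at 599, 489 and 459 CPM in PC3 and 1.05, 0 and 0.149 CPM in LNCaP, a ratio of 1302 (868 to 2054), or 6694 without vehicle replicate 1. Its receptor gene PLAUR was called higher as well, at a log2 fold change of 5.10. The metalloprotease inhibitor TIMP1 was at 123 to 168 CPM in PC3, with 7 reads in the vehicle libraries. The collagenase MMP13 was at 100.1, 67.8 and 151 CPM in PC3 and 0.320 to 0.576 CPM in LNCaP. MMP3, MMP7, MMP9 and MMP10 did not pass the filter. TFPI, which inhibits tissue factor, was at 31.3 to 33.7 CPM in PC3 and 87.2 to 95.7 CPM in LNCaP, and the cathepsin gene CTSB was not called.

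Of the 24 genes of the NF-κB and cytokine list only 12 passed the filter, and 8 of these were called higher in PC3, none lower. Of the 6 above 3 CPM in all 6 libraries 2 were called higher. CXCL8, which encodes interleukin-8, was at 27.0, 24.1 and 12 CPM in PC3 and had 1 read in the vehicle libraries. CXCL1 was at 13.2, 19.3 and 8.46 CPM in PC3 with no vehicle read, at least 88.0-fold higher. The adhesion receptor ICAM1 was at 31.2 to 44.6 CPM in PC3 and had 5 reads in LNCaP. The subunit gene NFKB1 and the inhibitor gene NFKBIA were not called, at 0.25 and -0.37 on the log2 scale. IL6, IL1A and IL1B did not pass.

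Interferon signalling runs from receptors through the kinases JAK1 and TYK2 to transcription factors that include STAT2 and IRF9 and induce antiviral genes. Of 30 members of the interferon and MHC list 20 were called higher in PC3, none lower and 10 were not called, with a median log2 fold change of 1.71. Of the 25 above 3 CPM in all 6 libraries 15 were called higher. JAK1 was at 99.7, 96.9 and 114 CPM in PC3 and 6.38, 6.83 and 7.29 CPM in LNCaP (log2 fold change 3.90 ± 0.10, edgeR adjusted p = 3.3e-08). TYK2 was at 165 to 173 CPM and 56.4 to 57.1 CPM. JAK2 was not called, at -0.46. STAT2 stayed under 2-fold at 0.94 ± 0.18, and it was called at 1.07 without PC3 replicate 1 and at 1.01 without vehicle replicate 3. The antiviral gene IFIT1 was at 25.3, 51.2 and 65.9 CPM in PC3 and 2.67, 2.29 and 1.98 CPM in LNCaP, and OAS1 at 12.2, 24.0 and 39.4 CPM and at most 0.587 CPM, so that both varied over 2-fold within PC3. Of the receptor genes IFNGR2 was called higher, at a log2 fold change of 1.43, and IFNAR1, IFNAR2 and IFNGR1 were not called.

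The antigen presentation genes did not move as 1 group. B2M, the light chain of MHC class I, was at 379.5, 417 and 409 CPM in PC3 and 159.5, 157 and 153 CPM in LNCaP. HLA-B and HLA-C, which encode heavy chains, lay on the other side without being called, at -0.64 ± 0.09 and -0.76 ± 0.09 on the log2 scale. These genes resemble one another, and 15.4% and 2.04% of the windows of HLA-B and HLA-C occur elsewhere in the reference. PSMB8, an immunoproteasome subunit, was at 32.4 to 35.2 CPM in PC3 and 0.837 to 0.907 CPM in LNCaP.

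**Figure D3:**
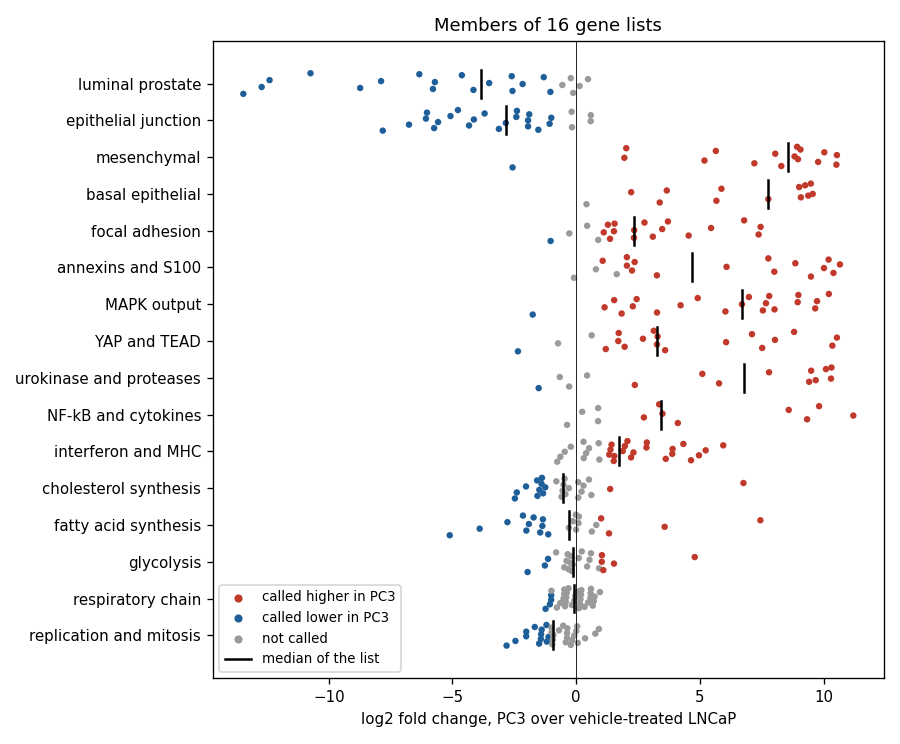
Each point is a member of 1 of 16 gene lists, placed by its log2 fold change of PC3 over vehicle-treated LNCaP, with a black bar at the median of the list. The luminal and junction lists lie at the left (medians -3.83 and -2.84), and the metabolic lists near 0. The mesenchymal, basal, MAPK and urokinase lists lie far to the right (8.56, 7.77, 6.70 and 6.79). Members that passed the filter through 1 line had to differ. Among members above 3 CPM in all 6 libraries the medians of these lists were 1.99, 3.38, 2.45 and -0.28, in the same order.

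STAT3, which carries signals from cytokines of the interleukin-6 family, was nearly without reads in PC3. It lies at chr17:42313324-42388540 (GRCh38, minus strand) and had 1, 3 and 1 reads in the 3 PC3 libraries and 3823, 3418 and 3839 in the vehicle libraries. The level ratio was 2778 (1190.1 to 8558), LNCaP over PC3, or 4821 without PC3 replicate 2. Its neighbours were low too. From DHX58 to ATP6V0A1, a stretch of 421 kb at chr17:42101404-42522582, all 12 genes of the table had at most 4 reads in every PC3 library. The 12 genes together had 4, 8 and 2 reads in PC3 and 11474, 10916 and 11971 in the vehicle libraries. The 7 of them that passed the filter, KAT2A, RAB5C, GHDC, STAT5B, STAT3, CAVIN1 and ATP6V0A1, were all called lower. HSPB9, KCNH4 and HCRT had at most 6 reads in any vehicle library, so their counts say little about a difference.

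Within this stretch RAB5C, a GTPase of early endosomes, had no read in PC3 and 3142, 3007 and 3180 reads in LNCaP, at least 1295-fold higher, although 41.4% of its windows occur elsewhere in the reference. STAT5B, a signal transducer of growth hormone and prolactin, had none in PC3 and 895, 934 and 1024 in LNCaP, at least 396-fold higher. STAT5A had none in PC3 and 46, 44 and 38 in LNCaP. KAT2A, which encodes the histone acetyltransferase GCN5, had 1 read over the 3 PC3 libraries. CAVIN1, whose product shapes caveolae with caveolin, had none in PC3 and 130, 169 and 151 in LNCaP, in contrast to CAV1 and CAV2, which were higher in PC3. Genes on either side had reads in both lines. On one side NKIRAS2 had 917, 814 and 971 reads in PC3, and on the other COASY had 2706, 2316 and 2684. NAGLU, next to ATP6V0A1, was called lower at 253, 232 and 234 reads in PC3 and 725, 672 and 710 in LNCaP. Read counts do not tell loss of the DNA from absence of transcription, and the genome was not measured here.

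**Figure D4:**
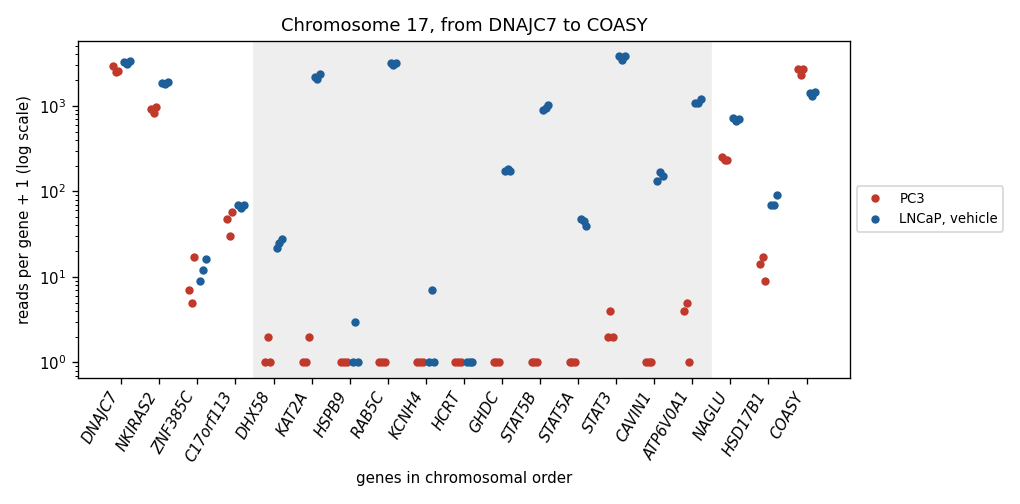
Reads per gene plus 1 (log axis) in each PC3 and vehicle-treated LNCaP library, for genes in chromosomal order on chromosome 17 from DNAJC7 to COASY, with the 12 genes from DHX58 to ATP6V0A1 shaded. In the shaded stretch every PC3 library has at most 4 reads per gene, while RAB5C and STAT3 have 3007 to 3839 reads in LNCaP.

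Other neighbouring genes shared a direction. The 12498 placed genes held 63 runs of at least 5 neighbours all called the same way, 31 higher and 32 lower in PC3, with 425 genes in all. The longest, on chromosome 10 at 73730562 to 75231448, held 15 genes called higher, among them PLAU and the adhesion gene VCL. A run of 10 on chromosome 1 was the S100 cluster, from S100A10 to S100A13, with a median log2 fold change of 7.44. A run of 5 on chromosome 7, at 114922094 to 116798377, held MDFIC, TES, CAV2, CAV1 and MET, with a median of 8.41. On chromosome 12 the keratin genes KRT80, KRT7, KRT81, KRT83 and KRT75 were called higher together. On chromosome 19 a run of 11 zinc finger genes from ZNF714 to ZNF730 was lower, with a median of -3.56. In the runs called lower stood 44 genes with ZNF or ZFP symbols, antisense RNAs aside. Runs called higher held such genes too, among them ZNF7, ZNF250 and ZNF16 on chromosome 8, and these were not counted. The share of all ZNF and ZFP genes called in each direction was not computed. On chromosome X 8 genes from MAGEA4 to MAGEA6 were lower, and the 7 of the MAGE and CSAG families of tumour antigens had at most 2 reads in every PC3 library, while GABRA3 had 7, 9 and 9. Members of such families resemble one another, so their reads may be shared. Runs of 4 or more numbered 152 and runs of 6 or more 36.

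Some genes were at or near 0 in one line, with 365 at 3 reads or fewer in every vehicle library and 279 in every PC3 library. Among those high in PC3, ABCC3, an efflux pump of conjugated compounds, was at 130.0, 108 and 272 CPM with 5 reads in LNCaP. Its ratio of 2008 (860.4 to 6187) was 3367 without vehicle replicate 1. LGALS3, which encodes galectin-3, was at 93.6, 84.3 and 122 CPM with 2 reads in LNCaP. SYT16, a synaptotagmin, was at 140.4, 145 and 109 CPM in PC3 with 3 reads, all in vehicle replicate 1, and without that library PC3 was at least 852-fold higher. CHST2 and B3GNT5, which encode a sulphotransferase and a glycosyltransferase of cell surface glycans, were at 87.3 to 123 CPM and at 95.5 to 114 CPM.

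Among those high in LNCaP, PRUNE2 was at 385, 351 and 369 CPM with 3 reads in PC3, a ratio of 8935 (3057 to 43329), or 17561 without PC3 replicate 1. DDC, which encodes the decarboxylase of dopamine and serotonin synthesis, was at 367, 364 and 366 CPM with 6 reads in PC3, and it was at 11.5 ± 2.15 CPM in androgen-treated LNCaP. UGT2B17, which encodes an enzyme that glucuronidates androgens, was at 243, 209 and 274 CPM with no read in PC3, at least 1947-fold higher, and it was at 3.56 ± 0.368 CPM with androgen. LRRN1, a leucine-rich repeat gene, was at 193, 181 and 183 CPM, no read in PC3 and 18.4 ± 2.35 CPM with androgen. SLC22A3, an organic cation transporter gene, was at 229 to 261 CPM with 5 reads in PC3. For DDC, UGT2B17 and LRRN1 the level in PC3 was thus lower than in LNCaP under either treatment.

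Among the most abundant transcripts, those with the largest difference in reads were MSMP and FTH1 in PC3 and EEF2 and MME in LNCaP. MSMP, which encodes a small secreted protein first found in PC3 cells, was at 2734, 2367 and 3245 CPM in PC3 and 6.12, 0.107 and 0.645 CPM in LNCaP, and 76.0% of its windows also occur elsewhere or in other transcripts. FTH1, the ferritin heavy chain that stores iron, was at 2845, 2502 and 5503 CPM in PC3 and 1173, 1152 and 1194 CPM in LNCaP (log2 fold change 1.60 ± 0.28, edgeR adjusted p = 0.00099), with PC3 replicate 3 the highest. The amino acid transporter SLC38A2 was at 2693, 2394 and 2773 CPM in PC3 and 374, 354 and 355 CPM in LNCaP. CAPN2, a calpain protease subunit, was at 1624 to 1969.7 CPM and 45.6 to 49.7 CPM. EEF2, which moves the ribosome along the message, was at 1614, 1525 and 2021 CPM in PC3 and 5795, 5921 and 5503 CPM in LNCaP. MME, which encodes the cell surface peptidase neprilysin, was at 0.551 to 1.17 CPM in PC3 and 2035, 2017 and 1979 CPM in LNCaP.

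Ribosomal protein genes made up 5 of the 8 largest differences towards LNCaP, among them RPS2, RPL4, RPL7A and RPS6, at log2 fold changes from -2.18 to -1.51. RPL4 was at 885, 867 and 924 CPM in PC3 and 2569.7, 2557 and 2434 CPM in LNCaP. RPS24 was on the other side, at 3311, 3075 and 3615 CPM against 1659, 1573 and 1561 CPM, a difference that was no longer called without PC3 replicate 3 (0.95). Ribosomal protein genes have many processed copies, and 61.1% of the windows of RPS2, 56.4% of RPL7A and 21.5% of RPS24 occur elsewhere in the reference, against 15.5% of RPL4.

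Enzymes of lipid synthesis were mostly lower in PC3 where they differed. Of 23 members of the fatty acid list 11 were called lower, 4 higher and 8 were not called, with a median log2 fold change of -0.29. Of the 21 above 3 CPM in all 6 libraries 10 were called lower and 3 higher. FASN, the fatty acid synthase, was at 215, 312 and 234 CPM in PC3, at 1097, 984 and 1240.2 CPM in vehicle-treated LNCaP and at 4847 ± 390.3 CPM with androgen. SCD, which desaturates stearate, was at 437, 507 and 436 CPM in PC3, at 1136, 1126 and 1183 CPM with vehicle and at 3157 ± 203 CPM with androgen. ELOVL7, a fatty acid elongase, was at 0.495 to 0.748 CPM in PC3 and 20 to 23.3 CPM with vehicle. ACSL1, which activates long-chain fatty acids, was at 29.9 to 37.9 CPM in PC3 and 445 to 513 CPM with vehicle. Its relative ACSL4 was higher in PC3, at 112 to 128 CPM against 9.17 to 11 CPM. ACSL3 was not called between the lines, at 261 to 263 CPM and 235 to 246 CPM, but was at 4168 ± 185 CPM with androgen. PLIN2, a coat protein of lipid droplets, was at 48.9, 50.1 and 50.6 CPM in PC3 and 0.314, 0.267 and 0.248 CPM with vehicle, a ratio of 181 (111 to 317).

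Of 25 members of the cholesterol list 10 were called lower, 2 higher and 13 were not called, with a median log2 fold change of -0.55. Of the 24 above 3 CPM in all 6 libraries 10 were called lower and 1 higher. FDFT1, the squalene synthase, was at 42.6, 52.4 and 33.6 CPM in PC3, at 240.1, 225 and 238 CPM with vehicle and at 882 ± 23.5 CPM with androgen. INSIG1, which retains the sterol sensor in the endoplasmic reticulum, was at 36.8 to 51.6 CPM and 151 to 187 CPM. PC3 replicate 2 had the highest value of the 3 PC3 libraries for FDFT1 and INSIG1.

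Genes of glycolysis and respiration were called less often than those of the lipid lists. Of 23 glycolysis members, all above 3 CPM in all 6 libraries, 5 were called higher, 3 lower and 15 were not called. Over all genes above that level 31.7% were called, so the glycolysis counts do not set this list apart. Without PC3 replicate 3 the count called higher was 3. SLC16A3, which exports lactate, was at 112, 129 and 146 CPM in PC3 and 4.60, 4.75 and 4.37 CPM in LNCaP (log2 fold change 4.79 ± 0.13, edgeR adjusted p = 3.3e-08). The first enzyme gene HK1 was at 334 to 451 CPM and 126 to 138 CPM. PKM, pyruvate kinase, was at the threshold of 2-fold with a log2 fold change of 1.04 ± 0.07 and was not called without PC3 replicate 3. GAPDH and LDHA were not called, at -0.39 and 0.93. Of 33 respiratory chain genes 4 were called lower (UQCRC2, ATP5F1A, COX5A and NDUFB10), none higher and 29 were not called, with a median of -0.07, and without vehicle replicate 1 the count of 4 was 2.

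**Figure D5:**
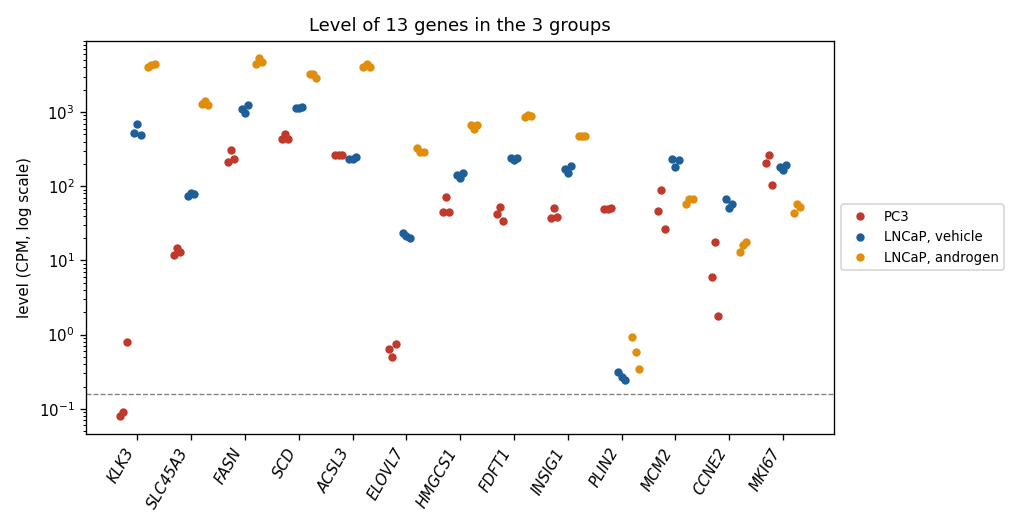
The level of 13 genes is plotted in each library of PC3, vehicle-treated LNCaP and androgen-treated LNCaP (CPM, log axis, dashed line at the level of 3 reads). KLK3, FASN and FDFT1 are lowest in PC3 and highest with androgen, ACSL3 lies at 235 to 263 CPM in PC3 and with vehicle and at 4168 CPM on average with androgen, and MCM2 and CCNE2 spread widely within PC3.

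Genes of DNA replication and mitosis were lower or not called in PC3, with 12 of 32 called lower, none higher, and a median log2 fold change of -0.93. Of the 31 above 3 CPM in all 6 libraries 11 were called lower. The 12 were genes of origin licensing and of entry into S phase, such as MCM2, MCM4, CDC6, CDT1, CCNE1 and CCNE2, together with PCNA, RRM1, MCM5, MCM6, CCNA2 and CDK1. MCM2, a subunit of the replicative helicase, was at 45.8, 88.1 and 26.8 CPM in PC3 and 232, 182 and 224 CPM in LNCaP (log2 fold change -2.02 ± 0.38, edgeR adjusted p = 0.0014). CCNE2, a cyclin of the G1 to S transition, was at 6.06, 18.0 and 1.81 CPM in PC3 and 67.2, 51.4 and 57.5 CPM in LNCaP. The proliferation marker MKI67 was at 205, 267 and 105 CPM in PC3 and 184, 164 and 194 CPM in LNCaP, so that the groups overlapped. The PC3 libraries differed among themselves here, with summed levels of this list from 1825 CPM in replicate 3 to 4512 CPM in replicate 2, against 4392.6 to 5149.7 CPM in the vehicle libraries. When each gene was tested against a difference of 2-fold, 4 of the list were called lower.

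Of 16 cell cycle inhibitors and stress genes, 6 were called lower, 5 higher and 5 were not called. Of the 12 above 3 CPM in all 6 libraries 4 were called lower and 3 higher. BTG2, an antiproliferative gene, was at 0.787 to 1.17 CPM in PC3 and 55.2 to 63.9 CPM in LNCaP. SESN1, which restrains mTORC1, was at 6.74 to 7.83 CPM and 101 to 117 CPM, and CDKN1A, the cyclin-dependent kinase inhibitor p21, at 8.14 to 12.2 CPM and 90.3 to 108 CPM. On the other side CDKN2B, the inhibitor p15, was at 294, 187 and 269 CPM in PC3 and 2.83, 1.97 and 2.53 CPM in LNCaP, and GADD45A was at 82.8 to 125 CPM and 13.8 to 14.8 CPM. Of 9 mismatch repair genes 1 was called higher, 2 lower and 6 were not called, with a median log2 fold change of -0.58. MSH6, which recognises mispaired bases, was not called, at -0.66 ± 0.11. PMS2 and PCNA were called lower, although 50.6% of the windows of PMS2 occur in its copies.

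The NRF2 list of antioxidant genes had 7 of 19 members called higher, 1 lower and 11 not called, with a median log2 fold change of 0.14, and of the 16 above 3 CPM in all 6 libraries 4 were called higher and 1 lower. NQO1, a common readout of NRF2, was not called, at -0.06 ± 0.09. GSTP1, which encodes a glutathione transferase, was at 147, 148 and 128 CPM in PC3 and 0.314, 0 and 0.248 CPM in LNCaP, a ratio of 743 (415 to 1489), or 1096 without vehicle replicate 1. Its promoter is known as a CpG island that is often methylated in prostate cancer, and methylation was not measured here. The RefSeq window at chr11:67583562-67583861 (GRCh38.p14, plus strand) is shown for its 36 CpG dinucleotides, with the single match to TGACTCA, the element bound by AP-1, in capitals.
GSTP1: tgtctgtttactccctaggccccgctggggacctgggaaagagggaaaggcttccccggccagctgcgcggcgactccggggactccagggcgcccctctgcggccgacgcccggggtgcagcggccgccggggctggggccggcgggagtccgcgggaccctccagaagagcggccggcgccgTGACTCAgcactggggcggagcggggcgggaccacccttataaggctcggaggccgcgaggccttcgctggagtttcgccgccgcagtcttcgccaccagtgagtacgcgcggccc
The match starts at -66, and TGACTCA or TGAGTCA occurs in 4.95% of the 35114 promoter windows. By contrast the KLK3 window above has 2 CpG dinucleotides and the CCN2 window 15.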

How the data were processed

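Poly(A) RNA of 3 PC3 libraries and 6 LNCaP libraries (3 with vehicle, 3 with androgen) was measured by RNA-seq. The authors trimmed the reads, aligned them to hg38 with STAR and removed PCR duplicates with UMI-tools, and deposited raw counts of uniquely placed reads per gene symbol. The submitters' processing notes name cutadapt 4.1, STAR 2.7.7a and UMI-tools 1.1.2. The gene annotation is not given in the sources used here. The deposited table equals the forward-strand column of the deposited STAR output. In that output 20.3 to 25.4% of the reads were, for any reason, not counted on a gene.

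Counts of the 6 libraries were tested with edgeR 4.0.16 (R 4.3.3) with TMM normalization and the quasi-likelihood test, line as the only term, after keeping genes over 3 CPM in at least 3 libraries. The study's methods name a likelihood ratio test with an unnamed batch term, and the batch was left out. Levels are CPM with TMM factors over all 9 libraries, and a gene with no read in a group was set against 3 reads per library. On simulated counts 194 of 200 changed genes were recovered with 3 wrong calls among 12686 genes, and 196 of 200 with none among 11697 for androgen. Only these 200 genes were changed, up and down alike, whereas 43.2% of genes were called between the lines. The simulation therefore checks the code and does not give the error rate of this comparison. Same-numbered androgen and vehicle libraries deviated together (correlations 0.192, 0.257 and 0.262), against -0.283 to 0.077 for unlike numbers. PC3 and vehicle libraries of unlike number reached correlations of similar size (0.180 and 0.185). Whether the numbers pair the androgen and vehicle libraries is therefore not settled, and the labels do not say what a number marks.

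The 25 gene lists and the genes were chosen with earlier results of these data known. Named genes were the 8 largest folds in each direction among genes over 3 CPM in all 6 libraries, the 8 largest differences in CPM, the 8 highest genes at 3 reads or fewer in one line, list members with the largest folds and defining members that did not pass, and runs of at least 5 neighbours. Y-linked genes and XIST were left out, and some genes that met the rule are not reported here. Other list members named, the genes around the chromosome 17 run and the genes singled out for overlap or exception were chosen after their values were seen. Genes were placed with GENCODE 44 on GRCh38 (12498 of 12686), by current or older symbol. For 211 named genes, 74-base windows of the canonical transcript at every 5th base were searched in hg38 and other genes' transcripts on both strands, and 160 had under 5% of windows elsewhere. RefSeq promoter entries existed for 77.4% of the genes called higher and 77.2% of those called lower, so no comparison of promoters between classes was made. Alternatives were DESeq2 1.42.0, its size factors, the likelihood ratio test, a replicate block, other filters and thresholds, unstranded counts, all 9 libraries in one fit and leaving out each library. The ratios of low genes without each library and the counts among genes above 3 CPM in all 6 libraries were added after the data were seen.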

Additional observations from a re-analysis of the deposited data

How the results depend on the processing

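The count of 5485 called genes, 2822 higher and 2663 lower, moved by over 1.5 times under 2 alternatives. With no filter on low counts it was 8713 (4475 higher and 4238 lower), as more genes were tested, and with the adjusted p alone it was 10577 (5407 and 5170), as the fold was not required. Under DESeq2 (5490), under its size factors, the likelihood ratio test, unstranded counts, all 9 libraries, 10 counts in every library (4472) and a test against 2-fold (4655) it stayed within 1.5 times. Leaving out 1 library at a time gave 5415 to 5616. With the replicate number as a block the count was 5495. The same-numbered PC3 and vehicle libraries deviated with correlations of 0.076, -0.234 and -0.033 over 8440 genes, so no pairing by number was seen. No call of a named gene changed with the block. The androgen count of 1641 was 1638 with the block. DESeq2 size factors moved the median log2 fold change from 0.03 to 0.02.

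Over 211 named genes and 3298 alternative values of their fold change, leaving aside the adjusted p alone, 3283 kept direction and call and none reversed. RPS24, KRT8, ITGAV, PCNA, PKM, ATP5F1A and CDK1 lost their call when tested against 2-fold, and without PC3 replicate 3 RPS24 (0.95), PKM (1.00) and ATP5F1A (-0.97) did. STAT2, LDHA and BIRC5 gained one in some alternative. Of 663 list counts 617 stayed within 1.5 times. Folds of genes with few reads in one line are limited by counting, and intervals stand beside those given as a ratio.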

Other observations

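Homeobox genes of the HOX clusters mark position along the body. Of 37 HOX genes 15 passed the filter, with 7 called higher in PC3, 4 lower and 4 not called. Only 5 of them exceeded 3 CPM in all 6 libraries, with 1 called lower and none higher. The members of the HOXA and HOXD clusters that were called were all higher in PC3, namely HOXA3, HOXA4, HOXA9, HOXA11, HOXA13 and HOXD4, with HOXB6 as the seventh. The 4 called lower were all of the HOXC cluster, HOXC4, HOXC6, HOXC9 and HOXC12. HOXA13 was at 48.5, 51.6 and 43.3 CPM in PC3 and had 1 read in each vehicle library. HOXC9 was at 0.629 to 0.758 CPM in PC3 and 10.1 to 11.7 CPM in LNCaP. HOXA10 and HOXC13 were not called, at -0.50 and -0.56 on the log2 scale.

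Of 21 neural and neuroendocrine genes 7 passed the filter, with 3 called higher, 2 lower and 2 not called, and CHGA, CHGB, SYP and INSM1 did not. Of the 4 above 3 CPM in all 6 libraries 2 were called higher and none lower. The vesicle gene SYT4 was at 115, 109 and 107 CPM in vehicle-treated LNCaP with no read in PC3, at least 887-fold higher. SYT1, of the same family, was at 52.6, 30.9 and 46.4 CPM in PC3 and 0.347 to 0.640 CPM in LNCaP.

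In the list of secretory pathway and unfolded protein response genes 5 of 25 were called higher, 2 lower and 18 not called. Without PC3 replicate 3, 2 were called higher. Of the 23 above 3 CPM in all 6 libraries 3 were called higher and 2 lower. CREB3L1, a membrane-bound factor of secretory cells, had 11.9 to 20.5 CPM in PC3 and 5 reads in LNCaP, while its relative CREB3L4 was at 14.2 to 16.9 CPM in PC3 and 76.5 to 79.9 CPM in LNCaP.

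The median log2 fold change of the genes on a chromosome ran from -0.64 on chromosome 9 and -0.60 on chromosome 22 to 0.48 on chromosome 2 and 0.56 on chromosome 21. On chromosome 22, 33.6% of 304 genes were called lower and 9.87% higher, and on chromosome 20 8.77% of 342 genes were called lower and 29.8% higher. Of 497 long non-coding RNAs 62.4% were called, 120 higher and 190 lower, against 42.0% of protein-coding genes. Genes that passed the filter through 1 line had to differ, which raises such shares. The shares by chromosome and by gene class were not computed among genes above 3 CPM in all 6 libraries. They are descriptions without a test, and the contrast with protein-coding genes cannot be told apart from the filter.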
